A study of Mus musculus with 10 samples.

Results

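The genes described here make up the drug and toxin metabolism of the mouse ileal epithelium: 10 cytochromes P450 and their electron donor Por, 7 carboxylesterases, 8 glutathione transferases, 3 glucuronosyl and sulfo transferases, 2 exporters, and the receptors Nr1i2 (PXR) and Nr1i3 (CAR). The 33 genes were chosen by symbol, with earlier results of these data known, so their shares set against all genes are descriptive. All 33 were among the 13932 genes of the count table, and all 33 passed the filter on low counts that kept 12477 genes for testing.

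Cells of the gut lining meet drugs, plant compounds and bacterial products before the liver does. Cytochromes P450 oxidise such compounds with electrons from Por, and carboxylesterases split esters and amides. Transferases then attach glutathione, glucuronic acid or sulfate, and pumps of the apical membrane return the products to the lumen. PXR and CAR are nuclear receptors that sense foreign compounds and switch on many of these genes, and in the small intestine the system is richest in the mature enterocytes of the villus.

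RNA was sequenced from sorted live epithelial cells of the ileum that carried EpCAM and lacked CD45, a marker of leukocytes, and each library came from 1 mouse. The 5 dIEC mice (males 1, 3 and 5, females 7 and 9) had genotype H2-Ab1 fl/fl with Villin:Cre+ by their sample labels, and the 5 WT mice (males 2, 4 and 6, females 8 and 10) H2-Ab1 fl/fl with Villin:Cre-. H2-Ab1 encodes an MHC class II beta chain, and the villin promoter drives Cre in the intestinal epithelium. Both genotypes carried the floxed gene and all dIEC mice carried Cre, so the deletion and Cre itself cannot be told apart; the series text gives Cre- for both genotypes. Ages are not in the labels used here.

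Total counts lay between 9174101 and 13484363 in the 10 libraries. H2-Ab1 averaged 208 CPM (counts scaled to a common library size with TMM factors) in WT and 2.14 CPM in dIEC. Epcam stood between 1476 and 2561 CPM in every library, while Ptprc, which encodes CD45, stayed under 0.80 CPM, and 5 of 20 leukocyte genes and 6 of 16 stromal genes were in the table. The libraries differed in how proliferative they were. The proliferation score, the mean log2 CPM of 26 cell cycle genes, was lowest in dIEC female 7 (2.86) and highest in dIEC female 9 (5.59), and the summed level of 24 mature enterocyte genes was highest in dIEC female 7 (119973 CPM) and lowest in dIEC female 9 (40799 CPM). In bulk RNA, fewer cells of a type and less RNA per cell cannot be told apart.

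Levels were compared between genes per kilobase of exon, as CPM per kb over the 10 libraries. The length is that of the exons merged over all annotated transcripts of a gene, so the order depends in part on annotation. Ces2e, a carboxylesterase, had the highest level, 568 ± 130 CPM per kb (SD, n = 10). Ugt1a1, the transferase that conjugates bilirubin, followed at 223, the membrane-bound glutathione transferase Mgst3 at 217, and Ces2a at 184. Cyp3a13 led the cytochromes P450 at 183 CPM per kb, with Cyp2d26 at 178 and Cyp2b10 at 164. The lowest level was that of Ces1g, 1.65 CPM per kb. Ordered by level, the 33 genes form 32 neighbouring pairs, and the ranges over libraries overlapped in all 32. Compared within libraries, Ces2e lay above Ugt1a1 in 10 of 10, and Ces1e lay above Ces1g in 10 of 10. In the other pairs the gene with the higher mean led in 3 to 9 libraries. Among the 2 exporters, Abcb1a (P-glycoprotein) had 50.8 and Abcg2 (breast cancer resistance protein) 28.9 CPM per kb. Before division by length they had 278.5 and 235.6 CPM. Among the regulators, Nr1i2 had 63.4 and Nr1i3 12.7 CPM per kb. Of the 4414 exon bases of Nr1i3, 3304 overlap exons of Tomm40l on the opposite strand. The use of strand in counting is not known, so much of any Nr1i3 value given here may come from Tomm40l.

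**Figure D1:**
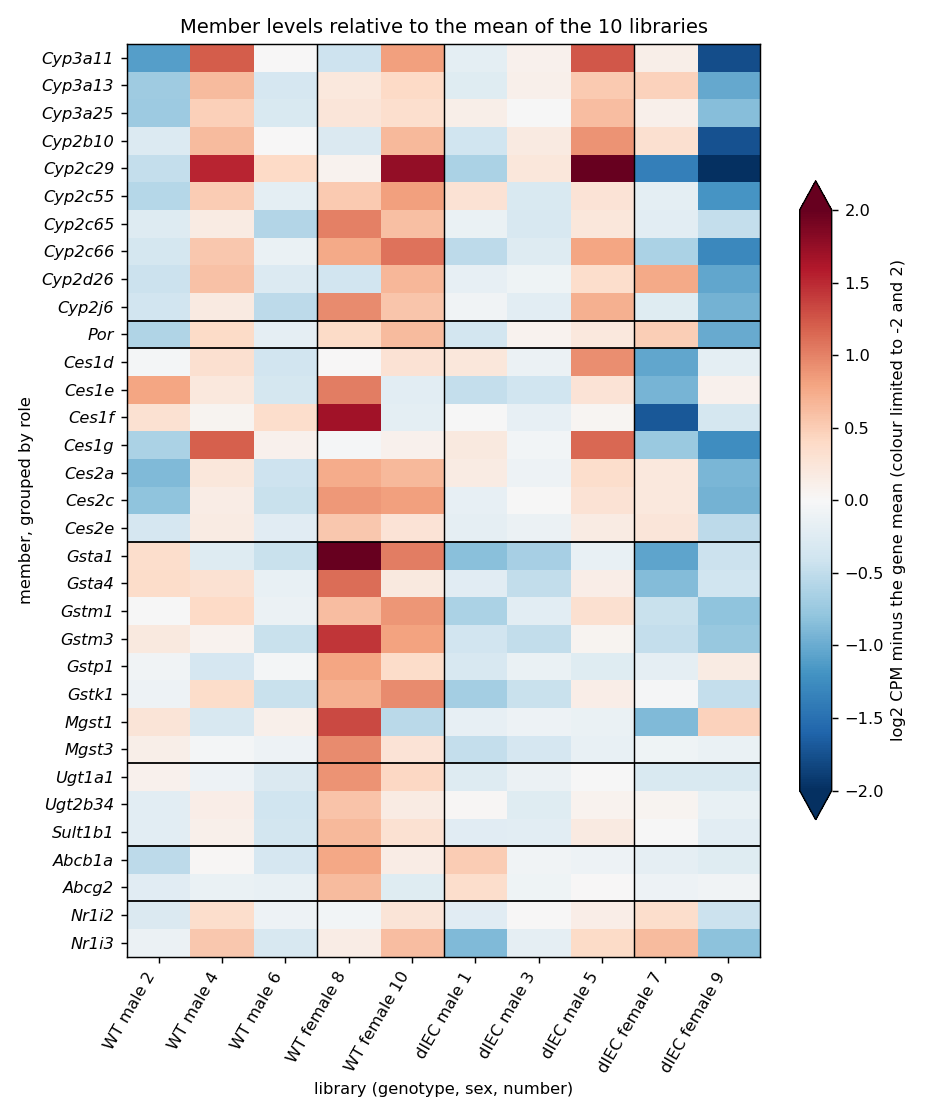
Level of each of the 33 genes (rows, grouped by role) in each of the 10 libraries (columns), as log2 CPM minus the mean of that gene over the libraries, with colour limited to -2 and 2. Both WT females are the 2 highest libraries for 14 genes, and dIEC female 9 is the lowest for 18.

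Shared sequence set how far some of these counts can be read. Gsta1 (ENSMUSG00000074183; mm10 chromosome 9, 78230656 to 78242684, plus strand), an alpha class glutathione transferase, has near-identical copies: 90.5% of the 50-base words in its exons also occur in other genes, most of them in Gm3776, and the coding sequences of the pair were 99.7% identical over 669 bases. Over 669 bases Gm10639 was 97.3% and Gsta2 97.9% identical to Gsta1. The stretch from base 229 to base 288 of the coding sequence (mm10, GENCODE release M21, sense strand) is shown. It was picked for the fewest differences among the copies, with at least 1 in Gsta2, so it is not typical of them. The copies Gm3776 and Gm10639 have the same letters there as Gsta1, and Gsta2 differs at the base in capitals:
Gsta1: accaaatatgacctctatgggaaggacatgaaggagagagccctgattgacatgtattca
Gsta2: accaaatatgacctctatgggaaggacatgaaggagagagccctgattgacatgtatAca
None of the 3 copies is in the count table under these symbols, and a value given for Gsta1 may hold reads from them. Ugt1a1 shares its last exons with the other genes of its locus. Of 9 Ugt1a genes in the table, 7 had counts within 5% of the lowest in every library, and between 72.4% and 80.3% of the Ugt1a1 count equalled the lowest count of the family. The value for Ugt1a1 is therefore largely that of the whole locus.

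The genotype comparison asked whether epithelial deletion of H2-Ab1 went with a change in these genes. None of the 33 passed the test: 0 were called by edgeR's quasi-likelihood test at an adjusted p under 0.05, where 0.016% of all tested genes were called, and 0 were called by DESeq2 (0.0321% of all genes) or limma voom (0.016%). At an unadjusted p under 0.05 there were 6 of 33 genes against 2.85% of all genes, all 6 lower in dIEC and all 6 glutathione transferases (8 members by DESeq2 and 6 by limma voom). This count was 2 without dIEC female 7, 2 without dIEC female 9 and 1 in a fit to the males alone, and it ranged from 2 to 9 over the fits that left out 1 library. The fitted value was below 0 for 32 of 33, where 47.4% of all genes were, and the median log2 fold change was -0.27 against 0.01 for all genes. No gene had WT and dIEC libraries that did not overlap (0 of 33, against 0.313% of all genes). The direction depended on the libraries used: without dIEC female 9 the fitted value was below 0 for 20 of 33 with a median of -0.07, and in males alone for 13 of 33 with a median of 0.08.

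Glutathione transferases join glutathione to reactive compounds. Gsta1 measured 11.9, 7.82 and 6.88 CPM in WT males 2, 4 and 6, 52.0 and 19.1 in WT females 8 and 10, 5.23, 5.88 and 8.44 in dIEC males 1, 3 and 5, and 4.48 and 6.93 in dIEC females 7 and 9. Both WT females were above all other libraries, while the WT males overlapped the dIEC range. The means were 19.5 ± 18.8 CPM in WT and 6.19 ± 1.54 CPM in dIEC (SD, n = 5 each), with a log2 fold change of -1.32 (SE 0.47, unadjusted p = 0.0179, edgeR adjusted p = 0.999891). Without WT female 8 it was -0.86 (edgeR unadjusted p = 0.0234). Gsta4 (ENSMUSG00000032348; chromosome 9, 78182774 to 78209349, plus strand) clears products of lipid peroxidation. In the same order of libraries, which is kept below, it measured 41.2, 39.5 and 28.7 CPM in WT males, 68.9 and 36.5 in WT females, 27.1, 22.5 and 35.0 in dIEC males, and 17.5 and 24.2 in dIEC females. WT male 6 lay below dIEC male 5, and the other 4 WT libraries were above all dIEC libraries. The log2 fold change of Gsta4 was -0.75 (SE 0.26, unadjusted p = 0.0143, edgeR adjusted p = 0.999891), and -0.49 without WT female 8 (edgeR unadjusted p = 0.0283).

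The mu class transferases Gstm1 and Gstm3 lie close together on chromosome 3 (minus strand, 108012255 to 108017973 and 107963696 to 107969283). Gstm3 measured 81.6, 75.1 and 52.8 CPM in WT males, 193 and 125 in WT females, 54.6, 51.0 and 74.2 in dIEC males, and 51.3 and 42.5 in dIEC females. WT males and dIEC males overlapped, and the 2 WT females lay above all 8 others. Its log2 fold change was -0.83 (SE 0.30, unadjusted p = 0.0204, edgeR adjusted p = 0.999891), and 28.8% of its 50-base words occur in other genes. Without dIEC female 9 and WT female 8 together the value was -0.49 (edgeR unadjusted p = 0.0526). Gstm1 measured 37.6, 49.8 and 35.0 CPM in WT males, 57.8 and 70.0 in WT females, 24.5, 32.7 and 47.2 in dIEC males, and 27.7 and 21.6 in dIEC females. The groups overlapped through dIEC male 5 alone, which exceeded WT males 2 and 6. Its log2 fold change was -0.68 (SE 0.26, unadjusted p = 0.0243, edgeR adjusted p = 0.999891).

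Transferases outside the cytosolic classes completed the 6. Mgst3 (chromosome 1, 167371966 to 167393841, minus strand), a microsomal enzyme, measured 249, 224 and 213 CPM in WT males, 440 and 279 in WT females, 164, 181 and 208 in dIEC males, and 216 and 209 in dIEC females. All WT males were above all dIEC males, and the groups overlapped only where dIEC female 7 exceeded WT male 6. The means were 281 ± 92.3 CPM in WT and 196 ± 22.2 CPM in dIEC (SD, n = 5 each; log2 fold change -0.49, SE 0.16, unadjusted p = 0.0135, edgeR adjusted p = 0.999891). Gstk1, the mitochondrial and peroxisomal kappa class enzyme, measured 31.8, 43.5 and 25.0 CPM in WT males, 55.7 and 65.5 in WT females, 21.1, 24.8 and 37.2 in dIEC males, and 33.5 and 24.5 in dIEC females. WT males 2 and 6 lay within the dIEC range. The log2 fold change of Gstk1 was -0.59 (SE 0.23, unadjusted p = 0.0303, edgeR adjusted p = 0.999891). The other 2 transferases had unadjusted p above 0.05, with log2 fold changes of -0.39 (SE 0.35) for Mgst1 and -0.29 (SE 0.15) for Gstp1.

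**Figure D2:**
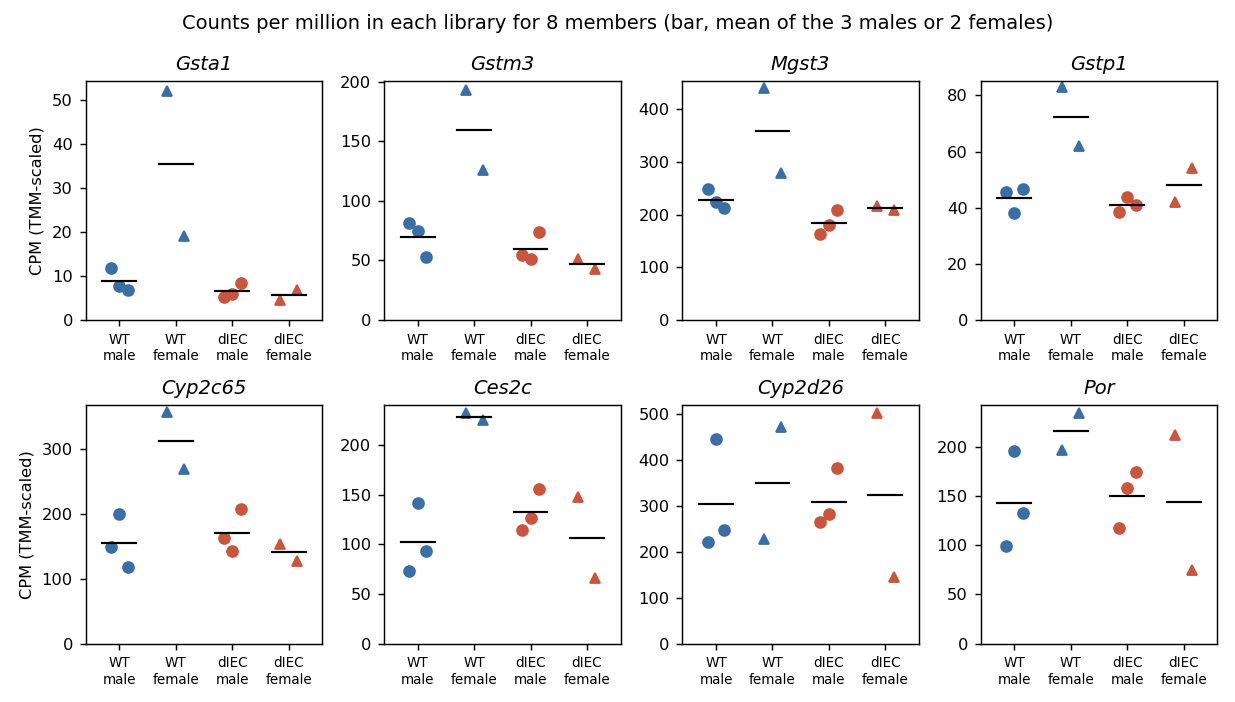
CPM of 8 genes in each library, on axes that start at 0, by genotype and sex, with a bar at the mean of the 3 males or 2 females. For Gsta1, Gstm3, Mgst3, Gstp1, Cyp2c65 and Ces2c both WT females lie above the other 8 libraries, while for Cyp2d26 and Por they do not.

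In the other roles no gene had an unadjusted p under 0.05 for genotype. All 10 cytochromes P450 had fitted values below 0, from -0.01 for Cyp3a25 to -0.73 for Cyp2c29, with a median of -0.25. Cyp3a13 (chromosome 5, 137892932 to 137921619, minus strand), a member of the main drug-oxidising family, measured 310, 787 and 404 CPM in WT males, 589 and 669 in WT females, 430, 545 and 728 in dIEC males, and 701 and 252 in dIEC females. Its spread within each genotype exceeded any difference between them: the log2 fold change was -0.05 with a 95% interval of -0.71 to 0.61. Cyp3a11, the classic PXR target, averaged 293 ± 177 CPM in WT and 263 ± 176 CPM in dIEC (SD, n = 5 each), and Cyp2b10, the classic CAR target, 361 ± 118 and 331 ± 182 CPM.

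Por measured 99.1, 196 and 133 CPM in WT males, 197 and 235 in WT females, 118, 158 and 175 in dIEC males, and 212 and 75.1 in dIEC females. Its lowest library was dIEC female 9 and its highest WT female 10, and the other libraries of both genotypes were mixed. Among the carboxylesterases, Ces2e measured 1185, 1671 and 1280 CPM in WT males, 2180 and 1818 in WT females, 1320, 1378 and 1686 in dIEC males, and 1778 and 1038 in dIEC females. The WT females were its 2 highest libraries and dIEC female 7 came next. The fitted value of all 7 esterases was below 0, from -0.02 for Ces1d to -0.92 for Ces1f, and the unadjusted p nearest the threshold was 0.0543, for Ces1f. The Ces1 enzymes, which also hydrolyse lipids, had low levels. Ces1f averaged 79.5 ± 49.5 CPM in WT and 41.8 ± 15.2 CPM in dIEC, Ces1e 14.7 ± 6.10 and 9.54 ± 3.06 CPM, Ces1d 14.0 ± 2.65 and 14.4 ± 7.06 CPM, and Ces1g 4.19 ± 2.18 and 3.71 ± 2.43 CPM (SD, n = 5 each).

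Of the receptors, Nr1i2 measured 130, 203 and 149 CPM in WT males, 153 and 190 in WT females, 137, 161 and 174 in dIEC males, and 202 and 118 in dIEC females. The log2 fold change of Nr1i2 was -0.06 with a 95% interval of -0.42 to 0.30. That of Nr1i3, whose exons largely overlap those of Tomm40l, was -0.26 with an interval of -0.87 to 0.35. The exporters had values of -0.04 (interval -0.54 to 0.46) for Abcb1a and 0.02 (interval -0.37 to 0.41) for Abcg2, the member fitted above 0. For Ugt2b34 and Sult1b1, which conjugate steroids and small phenols, the values were -0.11 and -0.20. Ugt2b34 averaged 691 ± 183 CPM in WT and 628 ± 59.8 CPM in dIEC, Sult1b1 321 ± 92.4 and 273 ± 35.2 CPM, and Abcg2 235 ± 70.5 and 236 ± 33.7 CPM (SD, n = 5 each).

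The second comparison set females against males with genotype held constant. None of the 33 was called (0.0401% of all genes were). At an unadjusted p under 0.05 there were 2 of 33 (6.06%), a share near the 4.44% of all genes. Both were glutathione transferases and higher in females. DESeq2 and limma voom called 0 (0.104% and 0.0401% of all genes), with 4 and 3 members at an unadjusted p under 0.05. By edgeR this count was 11 without dIEC female 9 and 1 without WT female 8 or WT male 4. The fitted value was above 0 for 26 of 33, where 58.4% of all genes were. The direction differed between genotypes. Within WT it was above 0 for 31 of 33 (6516 of 12477 of all genes), with a median of 0.64. Within dIEC it was above 0 for 8 of 33 (7877 of 12477 of all genes), with a median of -0.28. Gstp1, the pi class enzyme (chromosome 19, 4035407 to 4037985, minus strand), measured 45.5, 38.1 and 46.7 CPM in WT males, 82.9 and 61.9 in WT females, 38.6, 43.7 and 40.8 in dIEC males, and 42.2 and 54.0 in dIEC females. The 2 WT females and dIEC female 9 were its 3 highest libraries, and dIEC female 7 lay among the males. The log2 difference was 0.49 (SE 0.15, unadjusted p = 0.00803, edgeR adjusted p = 0.999635), and 33.7% of the 50-base words of Gstp1 also occur in its neighbour Gstp2. With the proliferation score as a further term Gstp1 was called (0.56, SE 0.12, edgeR adjusted p = 0.0262). It was 1 of 33 called in a fit that called 5.11% of all genes, so the share was not above that of all genes. The other of the 2 genes with an unadjusted p under 0.05 was Mgst3 (0.43, SE 0.17, unadjusted p = 0.0258, edgeR adjusted p = 0.999635). Without WT female 8 the difference was 0.19 for Mgst3 (edgeR unadjusted p = 0.158) and 0.30 for Gstp1 (edgeR unadjusted p = 0.0640).

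The third comparison asked whether the genotype difference depended on sex, with 2 females in each genotype. None of the 33 was called for the product of genotype and sex (0.00801% of all genes were), and DESeq2 and limma voom called 0 (0.144% and 0.016% of all genes). At an unadjusted p under 0.05 there were 12 of 33, against 2.1% of all genes (14 by DESeq2 and 12 by limma voom), and 8 to 17 when 1 library was left out. The fitted interaction was below 0 for all 33, where 45.2% of all genes were, with a median of -0.96. Below 0 means that dIEC lay lower against WT in females than in males. Within females the fitted difference was below 0 for 33 of 33, against 44.4% of all genes, with 17 at an unadjusted p under 0.05 (4.07% of all genes) and 0 called (0.0401%). A fit to the 4 female libraries alone gave 11 at that p. Within males it was below 0 for 13 of 33, against 52% of all genes, with 0 at an unadjusted p under 0.05 (0.761% of all genes) and 0 called (0.016%), and the fit to the male libraries alone gave 1, Mgst3. All 8 glutathione transferases were fitted lower in dIEC males, and all 10 cytochromes P450 higher.

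**Figure D3:**
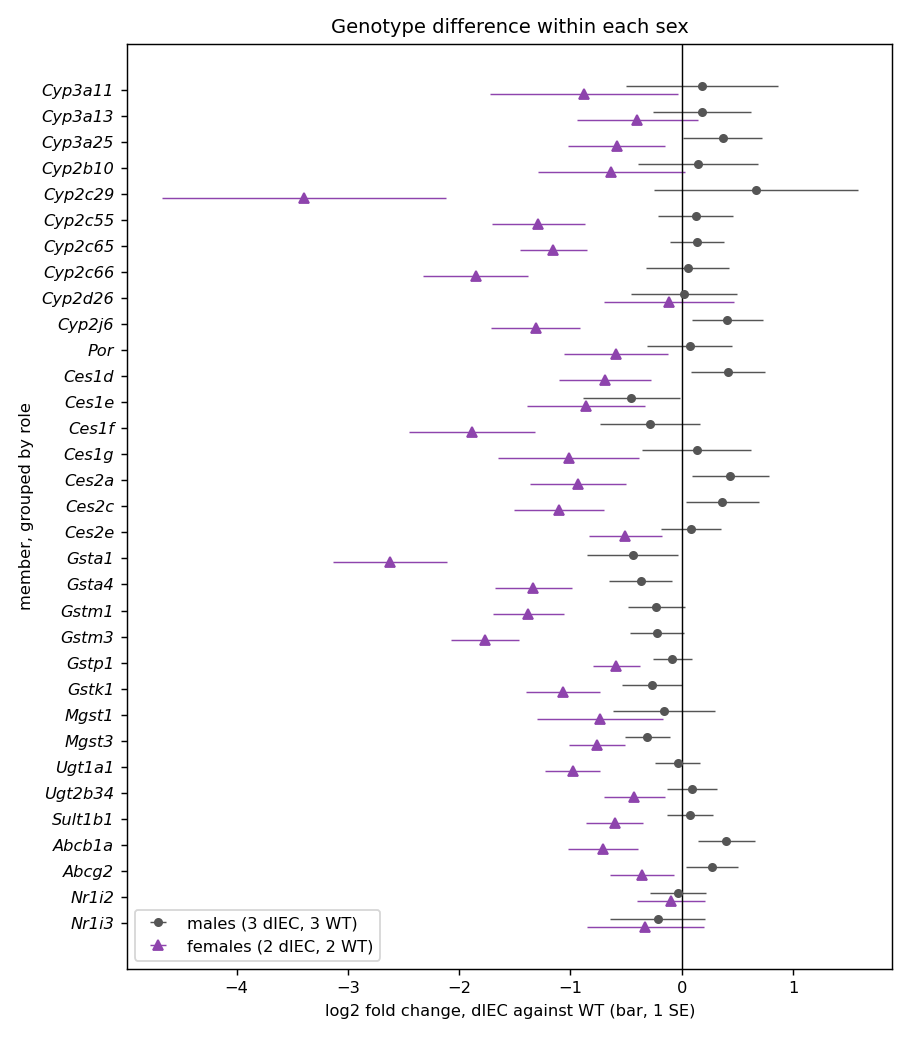
Fitted log2 fold change of dIEC against WT (x axis, bars 1 SE) for each of the 33 genes, in males (circles) and in females (triangles). In females all 33 lie below 0, and in males 13 do.

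Library by library, many of these genes were high in the 2 WT females. Both stood above all 8 other libraries for 14 of 33 genes, against 6.33% of all genes. The 14 were 5 glutathione transferases besides Gsta1 (Gstk1, Gstm1, Gstm3, Gstp1 and Mgst3), all 3 glucuronosyl and sulfo transferases (Ugt1a1, Ugt2b34 and Sult1b1), the esterases Ces2a, Ces2c and Ces2e, and Cyp2c55 and Cyp2c65. Each of the 2 libraries alone lay above the 8 for 21 genes (WT female 8, 20.6% of all genes) and 16 genes (WT female 10, 15.1% of all genes). At the other end, dIEC female 9 was the lowest of the 10 libraries for 18 of 33, against 16.6% of all genes.

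Beside this, the WT females also differed from the other libraries in red cell transcripts: the summed level of 5 haemoglobin and other erythroid genes was 0 and 0.18 CPM in WT females 8 and 10, and 13.2 to 28.4 CPM in the other 8. Goblet cell genes were lowest in the same 2 libraries, with a summed level of 7558 and 7249 CPM against 9085 to 51495 CPM. The summed level of 10 genes of the proximal small intestine was 6459 and 13237 CPM in WT females 8 and 10 and 2930 to 11613 CPM in the others, so that it was high in one and not in the other. Their proliferation scores, 4.52 and 3.20, lay within the range of the rest. The part of these differences in the levels of the 33 genes was not tested.

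The 12 genes came from every step of the pathway except the receptors and Por. Among them were the glutathione transferases Gstm3 (interaction -1.55, SE 0.39, unadjusted p = 0.00296), Gsta1 (-2.18, SE 0.64) and Gstm1 (-1.15, SE 0.40), whose values per library are given above. Without WT female 8 the interaction of Gsta1 was -1.23 (edgeR unadjusted p = 0.0652). Within females their log2 fold changes were -1.77, -2.62 and -1.38, and the smallest edgeR adjusted p of the 33 there was 0.325, for Gstm3. In males they were -0.22, -0.44 and -0.23.

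A further 5 were cytochromes P450, of which 4 are in the Cyp2c cluster of chromosome 19 and 1, Cyp2j6, belongs to a family that oxidises arachidonic acid. Cyp2c65 (39061015 to 39093944, plus strand) and its neighbour Cyp2c66 (39113898 to 39187072, plus strand) share 20.2% and 19.5% of their 50-base words with each other, and their RefSeq promoters read alike. The 250 bases before each start are shown (GRCm38.p6, plus strand, chr19:39060756-39061005 and chr19:39113648-39113897), with TATAAA and CAAAGTCCA, a form of the HNF4A motif, in capitals:
Cyp2c65: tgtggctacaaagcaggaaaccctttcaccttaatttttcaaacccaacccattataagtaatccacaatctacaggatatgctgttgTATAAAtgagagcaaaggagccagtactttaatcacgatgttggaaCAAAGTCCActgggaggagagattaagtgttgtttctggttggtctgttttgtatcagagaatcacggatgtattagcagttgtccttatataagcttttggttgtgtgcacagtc
Cyp2c66: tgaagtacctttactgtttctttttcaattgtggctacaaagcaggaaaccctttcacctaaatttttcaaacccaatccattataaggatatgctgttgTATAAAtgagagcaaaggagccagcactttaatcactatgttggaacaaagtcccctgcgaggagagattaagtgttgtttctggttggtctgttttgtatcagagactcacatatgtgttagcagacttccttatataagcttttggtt
Both hold TATAAA, and Cyp2c65 also holds CAAAGTCCA. On either strand of such windows, TATAAA was in 8 of the 30 members with a RefSeq promoter and in 14.3% of all symbols, and CAAAGTCCA was in 2 of 30 (Cyp3a11 and Cyp2c65) and in 0.451% of all symbols. These are matches of letters and not measured sites.

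Cyp2c65 measured 149, 200 and 118 CPM in WT males, 356 and 269 in WT females, 162, 142 and 207 in dIEC males, and 153 and 128 in dIEC females. The 2 WT females were its highest libraries, and the 2 dIEC females lay among the males. Its interaction was -1.29 (SE 0.39, unadjusted p = 0.00838). Cyp2c66 measured 55.2, 103 and 63.9 CPM in WT males, 119 and 149 in WT females, 49.1, 59.2 and 122 in dIEC males, and 45.5 and 28.9 in dIEC females. The dIEC females were its 2 lowest libraries, while dIEC male 5 exceeded WT female 8. Its interaction was -1.91 (SE 0.60, unadjusted p = 0.0106).

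Cyp2c55 measured 75.7, 160 and 97.7 CPM in WT males, 162 and 198 in WT females, 137, 90.6 and 136 in dIEC males, and 98.2 and 49.4 in dIEC females. WT male 4 lay just below WT female 8, so the separation of the WT females was small. Its interaction was -1.41 (SE 0.54, unadjusted p = 0.0270). Cyp2c29 had the lowest level of these 5 genes and measured 11.3, 44.9 and 20.6 CPM in WT males, 16.4 and 53.0 in WT females, 10.2, 18.4 and 92.5 in dIEC males, and 6.09 and 0.92 in dIEC females. The 2 dIEC females were its lowest libraries, WT female 8 lay among the males, and dIEC male 5 was highest. Its interaction was -4.06 (SE 1.56, unadjusted p = 0.0279), and -2.54 without dIEC male 5 (edgeR unadjusted p = 0.0785). Cyp2j6 (chromosome 4, 96516138 to 96553661, minus strand) measured 204, 301 and 186 CPM in WT males, 513 and 390 in WT females, 252, 230 and 435 in dIEC males, and 225 and 139 in dIEC females. dIEC male 5 lay between the 2 WT females, and dIEC female 9 was lowest. Its interaction was -1.72 (SE 0.51, unadjusted p = 0.00786).

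Next came 2 esterases of the Ces2 cluster on chromosome 8, whose products hydrolyse ester drugs. Ces2a (104734003 to 104741634, plus strand) measured 219, 471 and 303 CPM in WT males, 674 and 633 in WT females, 452, 377 and 516 in dIEC males, and 470 and 215 in dIEC females. Ces2c (104847068 to 104854483, plus strand) measured 72.8, 141 and 93.8 CPM in WT males, 232 and 225 in WT females, 114, 127 and 156 in dIEC males, and 147 and 65.8 in dIEC females. In both the WT females were highest, dIEC female 7 lay among the males, and dIEC female 9 was lowest. The interaction was -1.37 (SE 0.55, unadjusted p = 0.0347) for Ces2a and -1.47 (SE 0.52, unadjusted p = 0.0193) for Ces2c. With the proliferation score as a further term, Ces2c was called (-1.50, SE 0.25, edgeR adjusted p = 0.0419), in a fit that called 0.104% of all genes, and 21 of 33 had an unadjusted p under 0.05, against 10.5% of all genes. Of the 50-base words of Ces2c, 36.1% occur in other genes, most of them in the pseudogene Ces2d-ps.

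The last 2 were a transferase and an exporter. Ugt1a1 (chromosome 1, 88211959 to 88218997, plus strand) measured 506, 447 and 390 CPM in WT males, 887 and 638 in WT females, 397, 439 and 473 in dIEC males, and 388 and 385 in dIEC females. The interaction was -0.94 (SE 0.32, unadjusted p = 0.0153). The part of its count above the lowest count of the Ugt1a family was 140, 111 and 98.0 CPM in WT males, 200 and 146 in WT females, 78.3, 108 and 116 in dIEC males, and 97.6 and 94.5 in dIEC females, so both WT females were highest by this measure as well. Abcb1a (chromosome 5, 8660077 to 8748575, plus strand) measured 187, 273 and 214 CPM in WT males, 460 and 297 in WT females, 383, 256 and 250 in dIEC males, and 237 and 227 in dIEC females. dIEC male 1 stood between the 2 WT females. Its interaction was -1.11 (SE 0.40, unadjusted p = 0.0215), and -0.73 without WT female 8 (edgeR unadjusted p = 0.102). For the 12 genes the edgeR adjusted p of the interaction was 0.999997.

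The libraries also gave how each gene varied with the proliferation score, with sex and genotype as terms. The score and the gene levels come from the same libraries and scaling. Per unit of score, 10 of 33 genes passed edgeR's quasi-likelihood test, against 54.6% of all genes, a share below the background in this fit. Lower with a higher score were 9 of 33, about the same share as the 28.1% of all genes. They were 5 cytochromes P450, Por, both receptors and Ces2e. Higher was 1 (26.5% of all genes), Mgst1. The counts depended on the libraries, with 16 called without dIEC female 7 (5299 of 12692 of all genes), 6 without dIEC female 9 (4894 of 12547), and 3 without dIEC female 9 and WT female 8 (2152 of 12380). Without dIEC female 7 the share of the 33 called was above that of all genes, and in the fits without dIEC female 9 it was below. The 6 called without dIEC female 9 were Cyp3a13, Cyp2d26, Mgst1, Nr1i2, Nr1i3 and Gstp1. DESeq2 called 14 and limma voom 12 (54.4% and 54.6% of all genes).

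Cyp2d26, a member of the Cyp2d family, had the smallest p. It measured 221, 446 and 247 CPM in WT males, 229 and 473 in WT females, 264, 282 and 382 in dIEC males, and 502 and 145 in dIEC females. The highest and the lowest library were the 2 with the lowest and the highest score, dIEC females 7 and 9. Cyp2d26 fell by 0.68 on the log2 scale per unit of score (SE 0.060, edgeR adjusted p = 2.433e-06). Cyp3a13 fell by 0.56 (SE 0.12, adjusted p = 0.00197), Cyp2b10 by 0.74 (SE 0.15, adjusted p = 0.00282), Cyp3a11 by 0.93 (SE 0.24, adjusted p = 0.0130), and Cyp3a25 by 0.43 (SE 0.14, adjusted p = 0.0247), all by edgeR. Of these, Cyp2b10, Cyp3a11 and Cyp3a25 were no longer called without dIEC female 9 (fitted -0.54, -0.90 and -0.30). The other 5 cytochromes P450 did not pass, with fitted values from -0.16 for Cyp2c65 to -1.36 for Cyp2c29.

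Por fell by 0.50 (SE 0.11, edgeR adjusted p = 0.00272), and without dIEC female 9 it was no longer called (-0.31). Nr1i3, whose count may hold Tomm40l reads, fell by 0.52 (SE 0.11, edgeR adjusted p = 0.00189). Nr1i2 fell by 0.30 (SE 0.055, edgeR adjusted p = 0.000548). Scaling by library size alone moved the median of all genes from -0.01 to 0.16 per unit of score, and under it Nr1i2 (-0.08), Cyp3a25 (-0.20) and Ces2e (-0.03) were no longer called. Ces2e, with -0.24 (SE 0.093, adjusted p = 0.0465), also lost the call under most of the other alternatives. Mgst1, the microsomal transferase with 444 CPM in WT female 8 and 243 CPM in dIEC female 9, rose by 0.57 (SE 0.16, edgeR adjusted p = 0.0135) and lost the call without dIEC female 7 (0.48). The other 7 glutathione transferases, the 3 glucuronosyl and sulfo transferases and the 2 exporters did not pass: Abcg2 had 0.08 (SE 0.11), Ugt1a1 0.02 (SE 0.12) and Gstm3 -0.07 (SE 0.24).

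**Figure D4:**
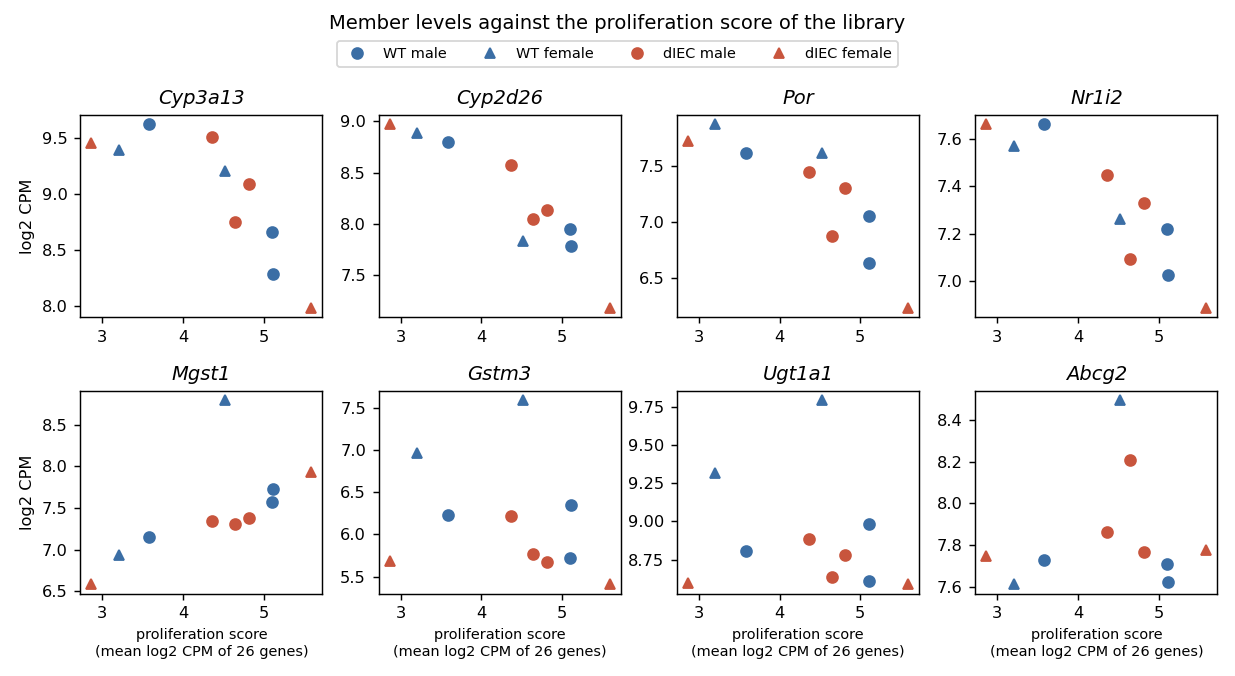
Log2 CPM of 8 genes (y axis) in each library against its proliferation score (x axis, mean log2 CPM of 26 cell cycle genes), coloured by genotype with a symbol for each sex. Cyp2d26 falls from dIEC female 7 at the left to dIEC female 9 at the right, while Gstm3, Ugt1a1 and Abcg2 did not pass the test.

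Other genes of the pathway were taken from a wider list of 165 symbols, of which 126 were in the table and 119 were tested. For genotype, sex and the interaction 0 of 119 were called. For genotype the fitted value was below 0 for 92 of 119 (47.4% of all genes), with a median of -0.20, and 7 had an unadjusted p under 0.05 (2.85% of all genes), all lower in dIEC. Within males it was below 0 for 68 of 119 (52% of all genes), with a median of -0.03 and 0 at an unadjusted p under 0.05 (0.761% of all genes). The 6 with the smallest p were the esterase Ces2g (-0.92, SE 0.30), the glutathione transferases Gstm2 (-0.89, SE 0.32), Gsta3 (-1.18, SE 0.42), Gstm6 (-0.78, SE 0.29) and Gstm4 (-0.99, SE 0.39), and the alcohol dehydrogenase Adh1 (-0.75, SE 0.30). The 20 tested genes listed for glutathione, which besides transferases hold enzymes of its synthesis, reduction and cleavage such as Gclc, Gss, Gsr and Ggt1, had 4 at an unadjusted p under 0.05 and 18 with a fitted value below 0. For the interaction 11 had an unadjusted p under 0.05 (2.1% of all genes), 7 of them rows of the Ugt1a locus that share most of their reads.

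With the proliferation score, 57 of these 119 genes were called (54.6% of all genes), 38 lower (28.1%) and 19 higher (26.5%). The share called was below that of all genes in total and for genes higher with the score, but above it for genes lower with the score. Lower with a higher score were the drug transporters Slc47a1 (-0.85, SE 0.083), Abcc2 (-0.75, SE 0.083), Slc15a1 (-0.63, SE 0.063) and Slc22a4 (-0.49, SE 0.056), and the glutathione-cleaving enzyme Ggt1 (-0.56, SE 0.070). Slc15a1 and Ggt1 are also on the list of mature enterocyte genes. Higher were the exporter Abcc1 (0.93, SE 0.099), the organic anion carriers Slco3a1 (0.93, SE 0.11) and Slco2b1 (0.81, SE 0.11), the aldehyde dehydrogenase Aldh1b1 (0.51, SE 0.078) and the hydrolase Bphl (0.54, SE 0.085).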

How the data were processed

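The authors deposited 1 table of raw counts, with a row per gene and a column for each of the 10 libraries. Per the labels' protocols, a stranded kit with depletion of ribosomal RNA was used. Per the submitters' processing notes, the aligner was Novoalign and the build mm10. Which program counted the reads, with which annotation and strand setting, is not given in the sources used here. The highest count of every listed gene is 10 or above. Within groups, chi-square over degrees of freedom between libraries was 17.0 to 163, far above sampling noise, and all were kept as separate replicates.

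Of the genes in the table, 12477 (89.6%) passed filterByExpr. Counts were scaled with TMM factors and tested in edgeR 4.0.16 (R 4.3.3) by the robust quasi-likelihood test. The additive model of sex and genotype served for those 2 comparisons. The model with a product term served for the interaction and for the values within each sex or genotype. The additive model plus the proliferation score gave the slope. DESeq2 1.42.0 and limma 3.58.1 were alternatives. A gene was called at a p under 0.05 after Benjamini-Hochberg adjustment over all tested genes. Standard errors were taken as the absolute log2 fold change divided by the root of F. Intervals of log2 fold changes used the normal distribution with these standard errors, so they are narrower than the quasi-likelihood test implies. Log2 CPM uses a prior count of 2. Exon lengths, coordinates and shared 50-base words come from GENCODE release M21, and promoters from RefSeq on GRCm38.p6.

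Full values go to genes with an unadjusted p under 0.05 in the genotype, sex or interaction test and to the gene with the highest level per kilobase of each role. The 33 members, the wider list and the marker lists were chosen with earlier results of these data known. Further alternatives were RLE size factors, no scaling beyond library size, no filter on low counts, fewer or more covariates, single sexes or genotypes, and each library left out in turn. The fit without dIEC 9 and WT 8 together, and the comparison of each WT female alone with the other libraries, were chosen after seeing the data.

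The procedure was tested on simulated data, with 200 of 12477 genes changed. The genotype test recovered 2.82%, 35.9% and 90.8% of genes changed 1.5-fold, 2-fold and 4-fold. At 4-fold, recovery was 87.1% for sex and 7.35% for the interaction. For the score it was 100%, but there 4-fold was the change per unit of score. The score ran from 2.86 to 5.59 over the libraries, so this recovery is not comparable with the others.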

Additional observations from a re-analysis of the deposited data

Results flagged for a closer look

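In each genotype, the 5 libraries were checked for a highest or lowest value whose gap to the nearest other library, as a share of the whole range in log2 CPM, exceeded 0.71. Of 66 groups (33 genes in 2 genotypes) 4 did, and chance flags about 1 in 20 groups, which is 3.3 of 66. Abcg2, the breast cancer resistance protein, was highest in WT female 8 (360 CPM, gap 0.87 of the range) and in dIEC male 1 (295 CPM, gap 0.745). Abcb1a, the P-glycoprotein, was also highest in dIEC male 1 among the dIEC libraries (383 CPM, gap 0.767). Ces1f, a carboxylesterase, was lowest in dIEC female 7 (16.1 CPM, gap 0.773), while the other dIEC libraries had 40.9 to 53.8 CPM.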

How the results depend on the processing

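No member was called for genotype under any of the alternatives run. The number of members fitted below 0 for genotype was 32, and it was 20 without dIEC 9 and WT 8 together, 13 in males only, and between 20 and 33 when 1 library was left out, with 20 without dIEC 9. The median log2 fold change of -0.27 became -0.86 in females only and 0.08 in males only, and ranged from -0.46 to -0.07 when 1 library was left out. With the proliferation score as covariate, 1 member was called for sex (5.11% of all genes) and 1 for the interaction (0.104% of all genes), against 0 in the reported fits. For the score, the 10 called members became 3 without dIEC 9 and WT 8 together and ranged from 6 to 16 when 1 library was left out. No gene with an unadjusted p under 0.05 for genotype, sex or the interaction, or called for the score, changed sign in that comparison under any alternative run. No paired analysis was run because the labels do not say whether mice of the 2 genotypes were paired. Scaling by library size alone moved the median of all genes from 0.04 to 0.12 for the interaction, a shift of under 0.1, and from -0.01 to 0.16 for the score. The medians for genotype and sex also moved by under 0.1. With 2 females per genotype the interaction test recovered 7.35% of simulated 4-fold changes, so an interaction that missed the threshold is not shown to be absent.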
